A study of Mus musculus with 21 samples.

Results

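Left ventricles of 12 banded mice given low-level vagus nerve stimulation (LL-VNS) were compared with left ventricles of 6 banded mice given none, across every gene of 1 RNA-seq count table that holds 21 libraries. The labels alone chose the members. The stimulated side was 4 groups of 3 libraries, each group with equal weight, and the unstimulated side was 2 groups of 3 libraries, again with equal weight. The 3 remaining libraries came from sham-operated mice and stood outside the comparison, although they shared in the estimate of the spread.

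All mice were wild-type C57BL/6 males, 8 weeks old at surgery, and their hearts were taken 8 weeks after it. Aortic banding, abbreviated AB, narrows the ascending aorta and raises the pressure against which the left ventricle works. Stimulation used 4 µA at 2 Hz on the left cervical vagus nerve, from a biodegradable triboelectric nanogenerator (BTENG), an implant that turns movement into current. The group called VNS20_1w received 20 min a day from week 1 for 7 weeks, VNS20_2w received 20 min a day from week 2 for 6 weeks, and VNS20_4w received 20 min a day from week 4 for 4 weeks. The group called VNS10_1w received 10 min a day from week 1 for 7 weeks. On the unstimulated side, AB_Implant mice were banded and carried the device from week 1 without activation, and AB mice were banded with no therapy and no device named. Sham mice had the thoracotomy without ligation of the aorta. Because no device is named for the AB group, the device and the current cannot be told apart against it. The labels do not say in which week the stimulated mice received their device. Against AB_Implant, a difference in implant time therefore cannot be told apart from the current. The sample titles number biological replicates within each group, and p-values here reflect the spread among those samples.

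The vagus nerve carries parasympathetic fibres to the heart, where acetylcholine slows the sinus node and opposes sympathetic drive. Pressure overload is known to bring back genes of the fetal ventricle, to raise natriuretic peptides and to add collagen between the muscle cells. Albumin, apolipoproteins, fibrinogen chains and most xenobiotic cytochrome P450 enzymes are textbook products of the hepatocyte, and the ventricle is not known as a main source of them.

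Library totals ran from 11577509 to 19414865 counts in the stimulated libraries and from 12258567 to 17374915 counts in the unstimulated ones. Mitochondrial genes took 36.4% to 55.3% of the counts in stimulated and 34.4% to 49.99% in unstimulated libraries. The 12 cardiomyocyte markers summed to 60400 to 110000 CPM in stimulated and 55800 to 98800 CPM in unstimulated libraries, where CPM stands for counts scaled to a common library size (TMM), so the label of heart muscle holds on both sides. Libraries differed in how their levels rose or fell with transcript length. The slope of log2 CPM on log2 exon length ran from -0.567 to 0.182 (median -0.447) in stimulated and from -0.537 to -0.0108 (median -0.215) in unstimulated libraries. Replicate 2 of VNS20_1w, replicate 1 of VNS20_2w and replicate 2 of VNS10_1w had the highest slopes, from 0.158 to 0.182.

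Stimulated hearts had more of messenger RNAs known from the liver and less of 19 transcripts, Cebpb among them. Of 12100 genes tested, 53 passed an adjusted p of 0.05 in edgeR's quasi-likelihood test, which is 0.438% of the genes, with 34 higher (0.281%) and 19 lower (0.157%). Among the 34 that rose were Alb (serum albumin), Gc (the vitamin D binding protein of plasma), Fabp1 (the fatty acid binding protein of liver) and Cyp3a11 (a xenobiotic cytochrome P450). In bulk tissue fewer cells of a type and less RNA per cell cannot be told apart. Among the 19 that fell were Cebpb (a transcription factor of the C/EBP family), Jund (a subunit of the AP-1 transcription factor), Hspa1a (an inducible heat shock protein) and Hnrnpa0 (an RNA-binding protein). In VNS10_1w their log2 fold changes were 0.27, -0.39, 0.35 and 0.05 in that order. Of the higher genes, 26 had all 12 stimulated libraries above all 6 unstimulated ones, which is 0.215% of the genes tested. Of the lower genes, 2 had every stimulated library below every unstimulated one, which is 0.0165%.

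In the fits of this paragraph that left out a library or a group or merged groups, the count of lower genes changed more than that of higher genes. The higher calls depended more on genes of low counts. With a mean of at least 5 CPM, 2 of the 34 higher genes were tested and 1 was called. Of the 19 lower genes 10 were tested and 3 were called. Against AB alone 14 of the 34 and 4 of the 19 kept their call. Without replicate 1 of AB 29 genes were called higher and 7 lower, and without replicate 3 of AB 28 and 9. Without replicates 1 or 3 of AB_Implant it was 28 higher in both cases, with 10 and 9 lower, and without replicates 1 or 3 of VNS10_1w it was 30 and 29 higher, with 12 and 9 lower. Without replicate 3 of VNS20_4w 31 were higher and 12 lower. With VNS20_1w left out of the stimulated side 32 were higher and 2 lower, without VNS20_2w 30 and 8, and with 1 stimulated and 1 unstimulated group in the model 34 and 1.

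The direction of the rises was the same in all 4 stimulated groups and that of the falls was not. All 34 higher genes had a positive log2 fold change in each of the 4 groups. On the unstimulated side, however, 26 of the 34 averaged less than 0.1 CPM and 10 lacked any read. For such genes almost any reads in a stimulated group give a positive sign. The signs therefore cannot show that the rises were steadier across groups than the falls. The 19 lower genes were all negative in VNS20_1w, VNS20_2w and VNS20_4w, and 12 of 19 were negative in VNS10_1w. Their median log2 fold change was -3.03 in VNS20_1w, -1.78 in VNS20_2w, -0.89 in VNS20_4w and -0.09 in VNS10_1w. These 4 values share the same 6 unstimulated libraries and come from genes that the pooled comparison chose, so they are a description.

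**Figure D1:**
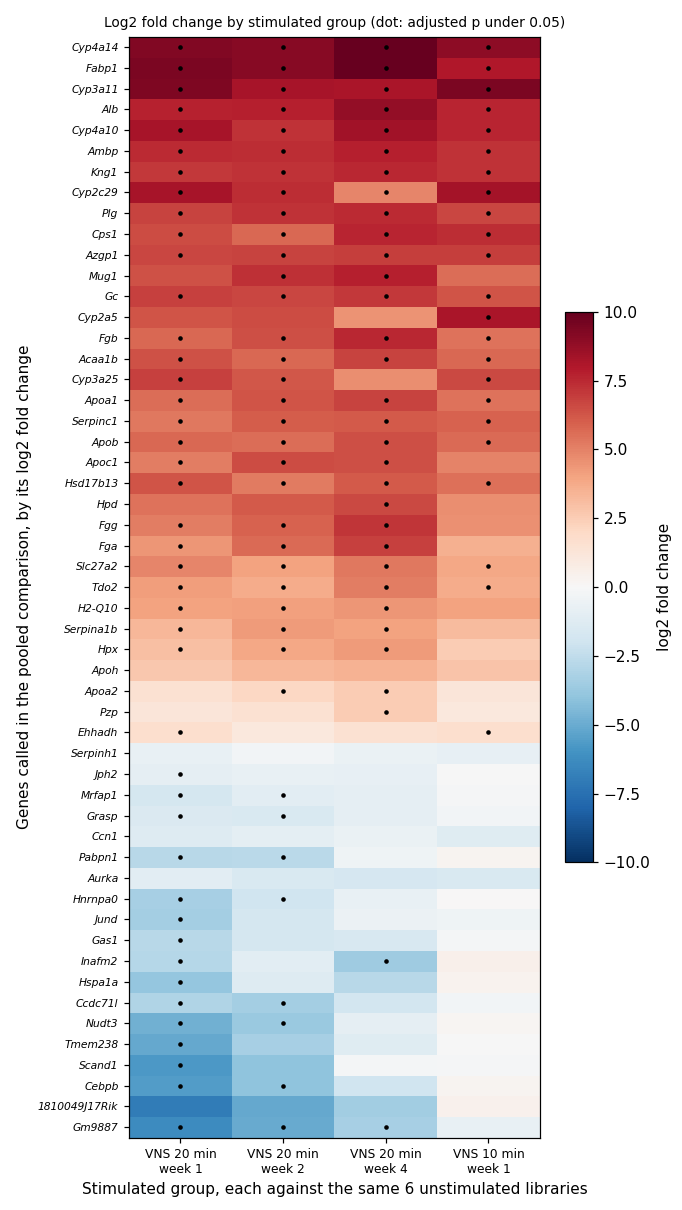
Log2 fold change of each of the 53 called genes (rows) in the 4 stimulated groups (columns), each against the same 6 unstimulated libraries, shown by colour. A dot marks an adjusted p under 0.05 in that group, the colour of genes without unstimulated reads depends on the prior count, the 34 genes at the top are above 0 in all 4 columns, and the 19 at the bottom have a median of -3.03 in VNS20_1w and -0.09 in VNS10_1w, with Aurka at -1.08 and -1.50 in these columns.

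Promoters of 3 genes that rose and 1 that fell are shown, chosen after their values were seen. They are shown because the liver genes Fabp1, Cyp2c29 and Cyp2a5 and the stretch gene Ccn1 all hold the letters TATAAA. These are the letters of the TATA box, the element that places the start of transcription in some genes. Each line gives the 100 bases before the RefSeq transcription start on the gene's own strand, in GRCm38.p6, with capitals on TATAAA or its reverse complement TTTATA. The windows are chr6:71199779-71199878 (plus strand) for Fabp1, chr19:39286985-39287084 (plus strand) for Cyp2c29, chr7:26835239-26835338 (plus strand) for Cyp2a5 and chr3:145649986-145650085 (minus strand) for Ccn1. The Cyp2c29 window lies inside the span of the gene used for counting (chr19:39269405-39330713). The windows of Fabp1 and Cyp2a5 also reach into the counted genes, which begin at chr6:71199827 and chr7:26835305.
Fabp1: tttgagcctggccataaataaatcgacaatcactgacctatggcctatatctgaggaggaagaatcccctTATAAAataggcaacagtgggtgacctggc
Cyp2c29: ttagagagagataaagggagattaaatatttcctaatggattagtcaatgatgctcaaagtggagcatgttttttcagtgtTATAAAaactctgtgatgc
Cyp2a5: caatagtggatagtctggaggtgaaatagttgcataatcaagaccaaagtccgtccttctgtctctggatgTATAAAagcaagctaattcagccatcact
Ccn1: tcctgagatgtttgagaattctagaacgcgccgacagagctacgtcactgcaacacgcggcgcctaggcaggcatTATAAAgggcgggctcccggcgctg
The capitals begin 30 bases before the start in Fabp1, 19 in Cyp2c29, 29 in Cyp2a5 and 25 in Ccn1. In windows from 250 bases before to 50 after the start, searched on both strands, TATAAA was found in 8 of the 28 higher genes and 3 of the 17 lower genes that had a promoter entry, against 13.6% of all 32851 windows. CAAAGTCCA, a sequence of the type bound by HNF4, was in 1 of 28 higher genes and 0 of 17 lower genes, against 0.475% of windows, and the 3-unit heat shock element was in none of either set, against 0.603%. A match describes letters only.

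Plasma proteins made up much of the rise, and Alb (chr5:90460897-90476602, GRCm38) was the most abundant of them. Alb stood at 37.9, 30.8 and 17.6 CPM in VNS20_1w, at 20.2, 46.0 and 25.7 CPM in VNS20_2w, at 61.3, 76.6 and 40.4 CPM in VNS20_4w and at 53.01, 9.17 and 18.1 CPM in VNS10_1w. It stood at 0, 0.0756 and 0.0414 CPM in AB_Implant and at 0.0686, 1.18 and 0.166 CPM in AB. Each of the 12 stimulated hearts was above each of the 6 unstimulated ones, and the highest unstimulated value was replicate 2 of AB. The pooled log2 fold change was 7.96 ± 0.61 (SE, adjusted p = 7.04e-07). Sham hearts averaged 0.120 CPM, so sham was on the side of the unstimulated hearts.

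Gc (chr5:89417522-89457898) varied little among the stimulated hearts. Its level ran from 2.95 to 7.26 CPM (median 5.11) in the 12 stimulated hearts and from 0 to 0.197 CPM (median 0.0207) in the 6 unstimulated ones, a log2 fold change of 6.70 ± 0.45 (adjusted p = 7.04e-07). Apoa1, the main protein of high-density lipoprotein, ran from 0.784 to 10.6 CPM (median 3.31) in stimulated and from 0 to 0.206 CPM in unstimulated hearts, a change of 6.00 ± 0.68 (adjusted p = 9.64e-05). The 3 fibrinogen chains, from which fibrin clots form, were all called. Fgb was at 0.922 to 12.8 CPM in stimulated and 0 to 0.296 CPM in unstimulated hearts (log2 fold change 6.29 ± 0.83, adjusted p = 0.0014), and Fga changed by 5.14 ± 0.75 (adjusted p = 0.00177). Fgg had 404 counts against 3, a ratio of 73.3 with a 95% counting interval from 24.9 to 357, where such an interval covers counting error only (adjusted p = 0.00169). Serpinc1 (antithrombin) had 194 counts against 2, a ratio of 52.8 (interval 14.4 to 439), and Apoc1 had 156 against 1, a ratio of 84.9 (interval 15.0 to 3375). Apob (the protein of low-density lipoprotein), Apoh, Hpx (hemopexin, which binds heme), Serpina1b and H2-Q10 were also higher, by 3.09 to 5.85 on the log2 scale. Serpina1b, Mug1 and H2-Q10 belong to families of near-identical copies, so reads may be split among relatives.

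Some plasma protein genes had no read in any unstimulated heart. Kng1 (kininogen) ran from 0.609 to 1.66 CPM in the stimulated hearts and had 207 counts there against 0 in the unstimulated hearts, so it was at least 37.6-fold higher, with the floor set at 3 counts over the 6 unstimulated libraries. By the same floor Ambp (the alpha-1-microglobulin and bikunin precursor) was at least 42.5-fold higher, Plg (plasminogen) at least 33.0-fold higher and Mug1 (a murinoglobulin) at least 32.6-fold higher. The levels are low, near 1 CPM, and the separation came from the absence of reads on the unstimulated side.

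Apoa2 and Pzp were plasma protein genes with reads on both sides and smaller changes. Apoa2, a lipoprotein component, ran from 1.15 to 6.28 CPM (median 3.20) in stimulated and from 0.605 to 1.68 CPM (median 0.758) in unstimulated hearts, a change of 1.83 ± 0.35 (adjusted p = 0.0185). Pzp, an inhibitor of plasma proteases, ran from 1.29 to 8.38 CPM in stimulated and from 0.690 to 1.66 CPM in unstimulated hearts, a change of 1.58 ± 0.30 (adjusted p = 0.0194). Both pairs of ranges overlap. Leaving out single libraries ended the call of Apoa2 in 5 of 18 fits and that of Pzp in 6 of 18. Among the other rises it did so for Apoh in 15 fits, Cyp2a5 in 14, Hpd in 13 and Mug1 in 13.

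Enzymes of drug and fatty acid metabolism were the other large class. Cyp3a11 (chr5:145854426-145879964) had 16.1, 9.34 and 5.64 CPM in VNS20_1w, 0.837, 3.18 and 10.7 CPM in VNS20_2w, 5.28, 5.49 and 3.317 CPM in VNS20_4w and 13.6, 4.98 and 14.5 CPM in VNS10_1w. In the unstimulated hearts it had a single count, in replicate 1 of AB. The ratio of the summed counts, 1308 against 1, was 712 with a counting interval from 128 to 28140 (adjusted p = 4.4e-05). Fabp1 (chr6:71199827-71205023) had 820 counts against 0 and was at least 149-fold higher, with 0.830 to 11.8 CPM in the stimulated hearts.

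Cyp4a14 and Cyp4a10 hydroxylate fatty acids and are classical targets of the receptor PPAR-alpha in mouse liver. Cyp4a14 had 928 counts in stimulated and 0 in unstimulated hearts and was at least 168-fold higher (adjusted p = 0.0014). Cyp4a10 had 893 counts against 2, a ratio of 243 with a counting interval from 67.1 to 2010 (adjusted p = 0.0007). Cyp2c29 had 1091 counts against 2, a ratio of 297 with an interval from 82.0 to 2455 (adjusted p = 1.48e-05). Cps1, which starts the urea cycle, was at least 31.6-fold higher, Cyp3a25 at least 20.1-fold, Azgp1 at least 28.3-fold and Cyp2a5 at least 31.2-fold. Hpd, which breaks down tyrosine, had 136 counts against 1, a ratio of 74.0 (interval 13.1 to 2945), and Hsd17b13, a lipid droplet protein, had 148 against 1, a ratio of 80.5 (interval 14.2 to 3203). All of these are made in liver, and close relatives within the Cyp4a and Cyp3a clusters may share reads.

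Ehhadh, a peroxisomal enzyme of fatty acid oxidation, had the highest median level in unstimulated hearts among the 34 genes that rose. It ran from 6.74 to 22.1 CPM (median 12.4) in stimulated and from 3.39 to 5.96 CPM (median 4.84) in unstimulated hearts without overlap, a change of 1.49 ± 0.26 (adjusted p = 0.00802). Sham hearts averaged 10.6 CPM and so lay with the stimulated hearts. Acaa1b, a peroxisomal thiolase, changed by 6.13 ± 0.78 (adjusted p = 0.000619), Slc27a2, an acyl-CoA synthetase, by 4.50 ± 0.63 (adjusted p = 0.0014) and Tdo2, which breaks down tryptophan, by 4.21 ± 0.63 (adjusted p = 0.0014).

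**Figure D2:**
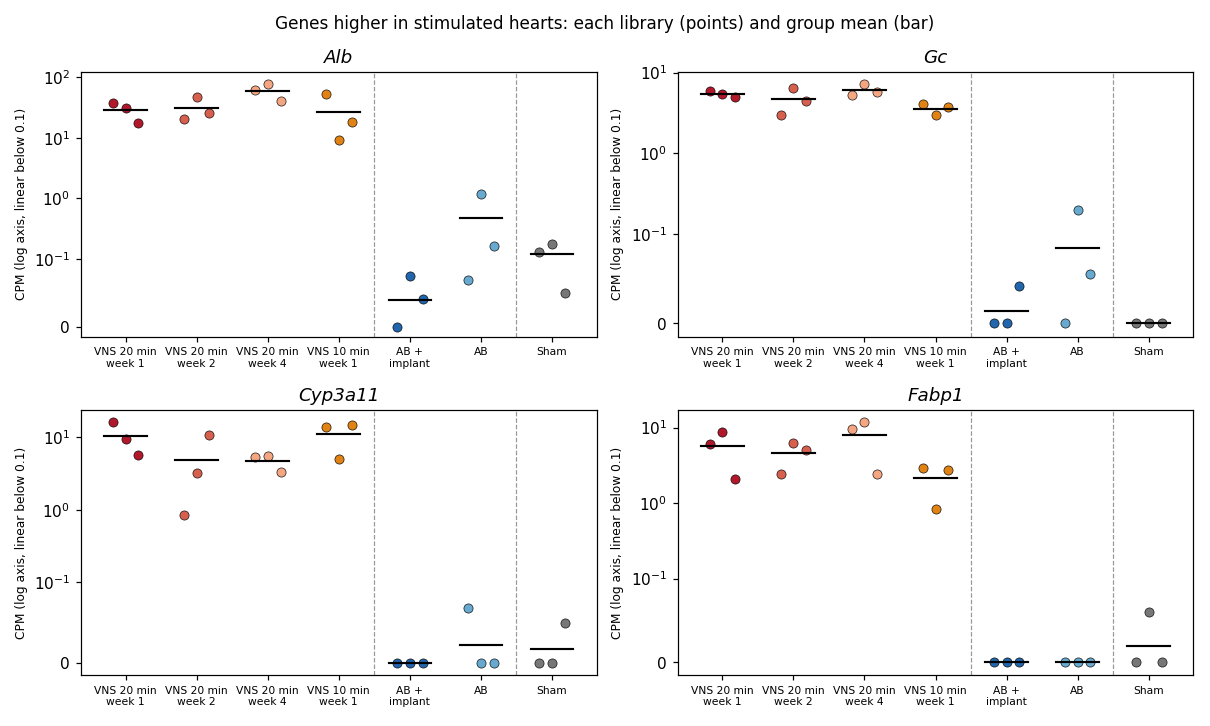
Level of Alb, Gc, Cyp3a11 and Fabp1 in each library (points, CPM on a log axis that is linear below 0.1) with the mean of each group (bar), for the 4 stimulated groups, the 2 unstimulated groups and sham from left to right. All stimulated points lie above all unstimulated points in the 4 panels, and Fabp1 is at 0 in all 6 unstimulated libraries.

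The list of 38 liver plasma protein genes had 28 tested members, of which 14 rose and 0 fell, beside 0.281% and 0.157% of all tested genes. Its median log2 fold change was 3.82 beside 0.02 over all tested genes. The list of 36 liver metabolism genes had 16 tested members, of which 8 rose and 0 fell, beside the same shares, with a median of 3.20. Setting the members without unstimulated reads at their bound left both medians as they were. These lists were chosen with earlier results known, and 31 of the 34 higher genes reached 1 CPM in no unstimulated or sham library, so they entered the test only through the stimulated groups and their count says nothing by itself. Summed over the 34 genes, the level was 59.2 to 211 CPM (median 147) in stimulated, 6.59 to 11.1 CPM (median 8.75) in unstimulated and 10.3 to 18.3 CPM in sham hearts.

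Defining markers of hepatocytes overlap with these genes. Of 12 such markers 9 were tested, and the 5 called higher, beside 0.281% of all tested genes, were Alb, Apoa1, Cyp3a11, Cps1 and Fabp1, which are already among the 34, so their count is no separate support. The summed level of the 12 markers, of which Alb is a large part, was 25.5 to 127 CPM in stimulated and 3.15 to 10.6 CPM in unstimulated libraries. Hnf4a, a transcription factor that defines hepatocytes, had 21 counts over the 12 stimulated libraries and 0 over the 6 unstimulated ones. Tat, a tyrosine aminotransferase, had 78 counts in stimulated and 3 in unstimulated libraries. The part of liver cells or liver RNA in these rises was not tested.

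The amounts of the liver transcripts relative to Alb are given per library as a description, with no test of the ratio. Cyp2c29 stood at 26.7, 37.2 and 30.3 counts per 100 Alb counts in VNS20_1w, at 8.29, 5.23 and 42.3 in VNS20_2w, at 1.78, 0.882 and 2.05 in VNS20_4w and at 19, 88.4 and 58.3 in VNS10_1w. In CPM it had 10.1, 11.5 and 5.34 in VNS20_1w, 1.67, 2.41 and 10.9 in VNS20_2w, 1.09, 0.675 and 0.829 in VNS20_4w and 10.1, 8.11 and 10.5 in VNS10_1w. All 3 VNS20_4w hearts lay below the 9 other stimulated hearts, but the difference in level between VNS20_4w and the other stimulated groups did not pass the test across all genes (log2 fold change -3.11 ± 0.61, adjusted p = 0.18). Cyp4a14 stood at 19.7, 17.6 and 9.71 per 100 Alb counts in VNS20_1w, at 18.3, 2.51 and 32.5 in VNS20_2w, at 19.1, 18.4 and 1.85 in VNS20_4w and at 4.94, 17.1 and 43.5 in VNS10_1w. Its spread within groups was wide although its sums over the 3 libraries of a group lay between 14.7 and 17.5.

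**Figure D3:**
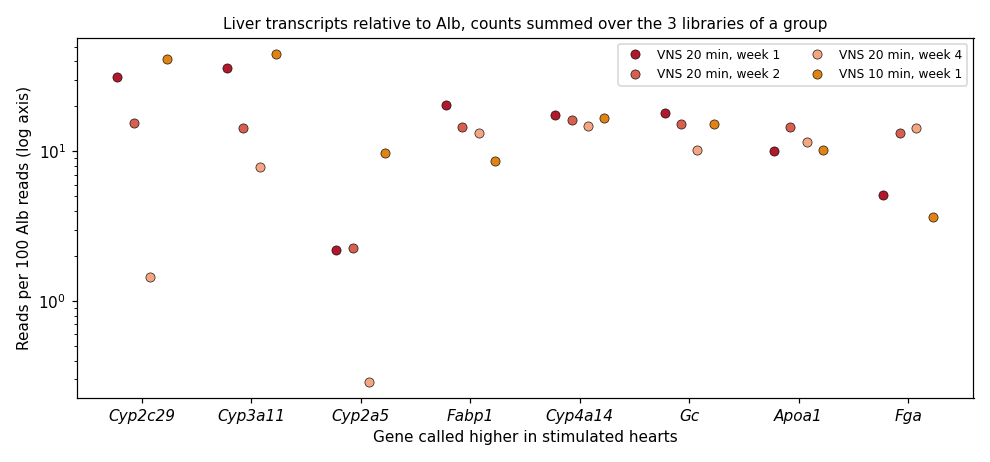
Counts per 100 Alb counts for 8 liver transcripts in the 4 stimulated groups, with counts summed over the 3 libraries of each group. Cyp2c29 is lowest in VNS20_4w at 1.45 and highest in VNS10_1w at 41.4, and the sums of Cyp4a14 lie between 14.7 and 17.5 although its single libraries run from 1.85 to 43.5.

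Of the 34 higher genes, 20 also passed the test in each of the 4 stimulated groups (0.165% of tested genes), 7 in 3 groups, 3 in 2 groups and 3 in 1 group. Apoh passed in no single group (pooled log2 fold change 3.09 ± 0.65, adjusted p = 0.0379). No gene was called lower in all 4 groups. The 4 single-group comparisons share the 6 unstimulated libraries. VNS20_1w had 60 called genes (0.496%), VNS20_2w 40 (0.331%), VNS20_4w 36 (0.298%) and VNS10_1w 25 (0.207%). VNS20_1w had 28 higher (0.231%) and 32 lower (0.264%), and VNS20_2w had 31 higher (0.256%) and 9 lower (0.0744%). VNS20_4w had 34 higher (0.281%) and 2 lower (0.0165%), and VNS10_1w had 23 higher (0.19%) and 2 lower (0.0165%).

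A transcription factor and an RNA-binding protein were among the falls that held without any single library. Cebpb (chr2:167688915-167690418), a factor of liver, fat and inflammatory genes, had 1.58, 0.187 and 0.706 CPM in VNS20_1w, 0.913, 2.79 and 4.18 CPM in VNS20_2w, 5.55, 22.4 and 2.40 CPM in VNS20_4w and 48.4, 31.4 and 66.2 CPM in VNS10_1w. It had 44.8, 38.9 and 34.7 CPM in AB_Implant and 65.8, 34.9 and 22.3 CPM in AB. The VNS20_1w and VNS20_2w hearts lay far below every unstimulated heart and the VNS10_1w hearts lay among them. The pooled log2 fold change was -2.82 ± 0.41 (adjusted p = 0.00124). By group it was -5.58 in VNS20_1w (adjusted p = 0.0016), -3.99 in VNS20_2w (0.014), -1.99 in VNS20_4w (0.304) and 0.27 in VNS10_1w (1.0). Sham hearts had 1.24, 1.98 and 4.11 CPM, so they were low as well.

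Hnrnpa0 (chr13:58125879-58128556) followed the same order. It had 4.74, 2.80 and 2.52 CPM in VNS20_1w, 6.2, 10.98 and 8.20 CPM in VNS20_2w, 21.6, 28.1 and 10.7 CPM in VNS20_4w and 32.7, 32.4 and 38.1 CPM in VNS10_1w. It had 28.4, 28.7 and 32.6 CPM in AB_Implant and 41.0, 37.7 and 31.7 CPM in AB. The pooled change was -1.48 ± 0.22 (adjusted p = 0.00144). Gm9887, a gene with no role given here, changed by -3.85 ± 0.38 (adjusted p = 2.29e-05), and its stimulated libraries ran from 0 to 3.44 CPM against 3.75 to 5.34 CPM in the unstimulated ones, with no overlap. Nudt3, a hydrolase of diphosphoinositol polyphosphates, changed by -2.30 ± 0.41 (adjusted p = 0.00802), and Mrfap1 by -0.94 ± 0.14 (adjusted p = 0.00136).

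Aurka, a kinase of mitosis, changed by similar amounts in the 4 groups. It ran from 0.166 to 0.623 CPM (median 0.413) in stimulated and from 0.690 to 1.71 CPM (median 1.13) in unstimulated hearts without overlap, a change of -1.46 ± 0.29 (adjusted p = 0.0245). Its group values were -1.08, -1.55, -1.71 and -1.50 in VNS20_1w, VNS20_2w, VNS20_4w and VNS10_1w, and none of them passed alone. Aurka was the single called gene among 21 tested genes of the cell cycle, beside 0.438% of all tested genes. The median of that list was -0.26 beside 0.02 over all genes.

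The other lower genes included an AP-1 subunit and a protein of messenger RNA maturation. Jund had 14.4, 2.86 and 6.65 CPM in VNS20_1w and 7.645 to 38.8 CPM in VNS20_2w, against 60.1 to 109 CPM in the 6 unstimulated hearts. It had 36.6 to 74.6 CPM in VNS20_4w and 38.1 to 78.55 CPM in VNS10_1w, which overlap the unstimulated range. Its pooled change was -1.52 ± 0.32 (adjusted p = 0.0382), and VNS20_1w was the only single group in which it was called. Pabpn1, which binds the poly(A) tail in the nucleus, changed by -1.42 ± 0.28 (adjusted p = 0.0245), and Gas1, a membrane protein linked to growth arrest, by -1.56 ± 0.32 (adjusted p = 0.0335). Scand1 changed by -2.51, Tmem238 by -2.41, Ccdc71l by -2.13, Inafm2 by -1.75, 1810049J17Rik by -3.77 and Grasp by -1.02, with adjusted p between 0.00766 and 0.0278. Leaving out single libraries ended the call of Serpinh1 in 16 of 18 fits, of Hspa1a, Jund and Jph2 in 14 each, of Gas1 in 13 and of Inafm2 in 11. It did so in 8 fits each for Scand1, Pabpn1 and Ccn1, in 4 each for Aurka and Tmem238, and in 2 each for Grasp and 1810049J17Rik. Cebpb, Hnrnpa0, Gm9887, Nudt3, Ccdc71l and Mrfap1 kept their call in all 18.

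**Figure D4:**
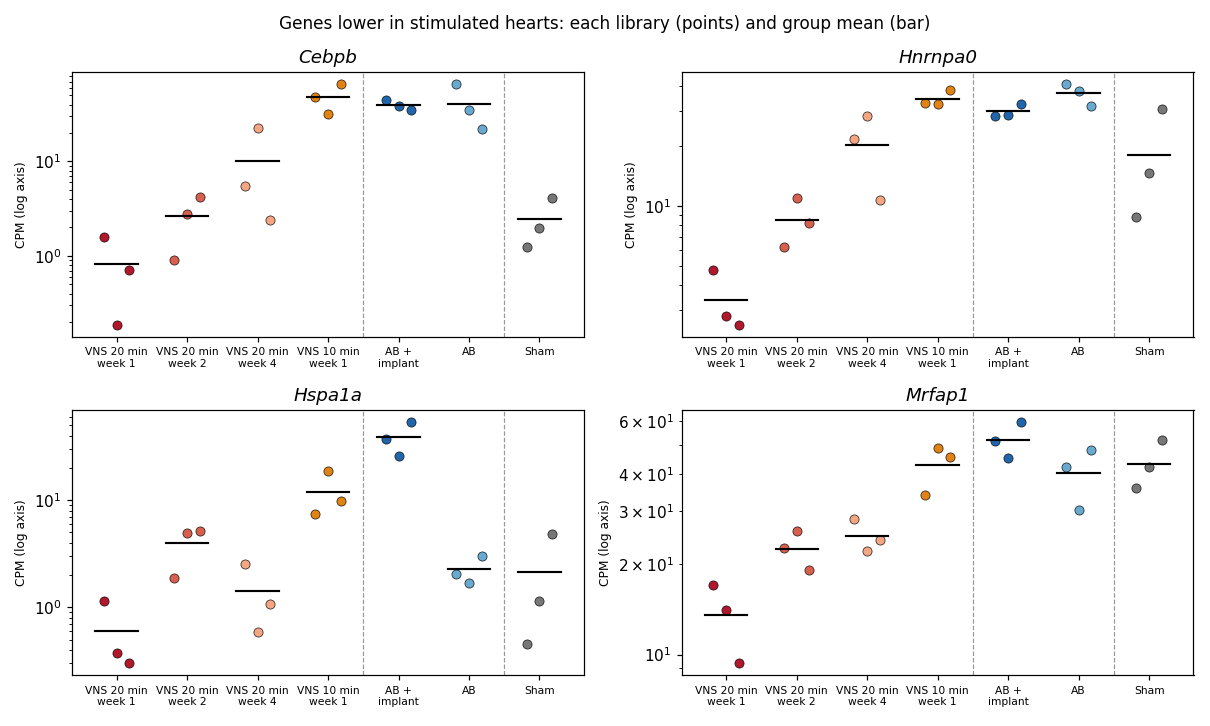
Level of Cebpb, Hnrnpa0, Hspa1a and Mrfap1 in each library (points, CPM) with the mean of each group (bar), for the 4 stimulated groups, the 2 unstimulated groups and sham from left to right. Cebpb lies between 0.187 and 4.18 CPM in VNS20_1w and VNS20_2w and between 22.3 and 66.2 CPM in VNS10_1w, AB_Implant and AB, and Hspa1a is high in AB_Implant alone among the unstimulated groups.

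Some lower genes had unequal values against the 2 unstimulated groups, between which none of the genes given here passed the test. Hspa1a had 1.14, 0.373 and 0.302 CPM in VNS20_1w, 1.86, 4.91 and 5.12 CPM in VNS20_2w, 2.55, 0.591 and 1.08 CPM in VNS20_4w and 7.44, 18.8 and 9.80 CPM in VNS10_1w, against 37.1, 25.9 and 53.4 CPM in AB_Implant and 2.06, 1.68 and 3.04 CPM in AB. Only the AB_Implant hearts stood above all 12 stimulated hearts. The pooled change of -1.89 ± 0.40 (adjusted p = 0.0398) was -3.93 against AB_Implant alone (adjusted p = 0.000127) and 0.15 against AB alone (adjusted p = 1.0). The difference of 4.08 between AB_Implant and AB hearts did not itself pass the test (adjusted p = 0.117). Hspa1a and Hspa1b are near-identical copies, so their counts are uncertain. Ccn1, a matrix protein induced by stretch, changed by -1.05 ± 0.21 (adjusted p = 0.0245), with -1.85 against AB_Implant alone and -0.26 against AB alone. Serpinh1, the collagen chaperone, changed by -0.63 ± 0.13 (adjusted p = 0.0423), with -0.93 against AB_Implant alone (adjusted p = 0.0113) and -0.33 against AB alone (adjusted p = 1.0). Jph2, which ties the calcium stores to the cell membrane, changed by -0.64 ± 0.13 (adjusted p = 0.0375), with nearly equal values of -0.68 against AB_Implant alone and -0.60 against AB alone.

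Against AB alone 14 of the 34 higher genes and 4 of the 19 lower genes were still called, and against AB_Implant alone 28 and 9 were. The 4 lower genes that kept their call against AB alone were Cebpb, Hnrnpa0, Gm9887 and Ccdc71l. The lower genes were mostly rich in GC. The transcripts of the 19 lower genes had a median GC content of 58.4%, beside 50.4% over tested genes, and 18 of 19 were above that value, whereas 11 of the 34 higher genes were. The slope of log2 CPM on GC content had a median of 0.0533 in stimulated and 0.0337 in unstimulated libraries. By group its median was 0.0392 in VNS20_1w, 0.0555 in VNS20_2w, 0.0647 in VNS20_4w and 0.0398 in VNS10_1w. It was 0.033 in AB_Implant and 0.0735 in AB. With this slope as a covariate all 53 genes kept their call, and the calls grew to 67 higher and 135 lower. The part of GC content in the falls was not tested. All 19 lower genes had a sham mean below the unstimulated mean, and for 7 of 19 it was also below the stimulated mean. These genes were chosen as high in the same 6 unstimulated libraries, which favours a lower sham mean. The share over all tested genes is not given here. For Jph2 the means were close, 147.5 CPM in sham and 151.6 CPM in unstimulated hearts. Across all genes, edgeR called 0 between AB and sham and 34 (0.281%) between AB_Implant and sham.

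Genes called in 1 group and in no other were mostly falls in VNS20_1w. There 23 genes were called lower in that group and in no other, out of 32 called lower (0.264% of tested genes). The genes named here were chosen after their values were seen. Nkx2-5, a transcription factor of heart muscle, had 10.7, 4.67 and 9.78 CPM in VNS20_1w against 27.5 to 57.2 CPM in the 6 unstimulated hearts, a change of -2.31 (adjusted p = 0.014). Its pooled change was -0.86 and was not called (adjusted p = 0.428). Maff, a small Maf factor, changed by -3.13 (adjusted p = 0.0414), H2afx, a histone of the DNA damage response, by -3.49 (adjusted p = 0.0155) and Ier5, an immediate early gene, by -1.91 (adjusted p = 0.0397). The 23 genes were negative in VNS20_2w in 23 cases, in VNS20_4w in 15 and in VNS10_1w in 20. Over all tested genes the median log2 fold changes in these groups were 0.066, -0.015 and 0.046. All groups share the 6 unstimulated libraries against which the 23 were chosen as low, which favours negative signs, so these counts are a description. Between VNS20_1w and the other stimulated groups 0 of the 23 were called. Their median GC content was 60.6%.

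Few genes were called in just 1 of the other groups, these too were named after their values were seen, and none of them passed the test against the other stimulated groups, so they are not shown to belong to 1 group. Called in VNS20_4w were Cyp2e1 at 3.31 (adjusted p = 0.0281, and 0.18 against the other stimulated groups), Pzp at 2.53 (0.00186, and 0.18), Ttr, the carrier of thyroxine, at 2.47 (0.0432, and 0.186) and Hpd (0.329 against the others). Called in VNS20_2w was Omd, a bone and matrix proteoglycan, at -2.62 (adjusted p = 0.0208, and 0.208 against the others). Called in VNS10_1w were Cyp2a5 (0.368 against the others), Col15a1, a basement membrane collagen, at -1.61 (adjusted p = 0.0477, and 0.15) and Ift122, a protein of ciliary transport, at -1.23 (0.0256, and 0.102). Pzp, Hpd and Cyp2a5 were also called in the pooled comparison.

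Set against the other 3 stimulated groups, VNS10_1w differed in 17 genes (0.14% of tested genes), with 13 higher (0.107%) and 4 lower (0.0331%). Of the 13 that were higher, Cebpb differed by 4.13 (adjusted p = 0.0013) and Hspa1a by 2.99 (adjusted p = 0.0114). The 4 lower ones were C3ar1, the receptor for complement C3a, Pirb, an inhibitory receptor of myeloid cells, S100a4, a calcium-binding protein, and Nrp1, a co-receptor of vascular growth factors. C3ar1 had 1.01, 1.01 and 1.69 CPM in VNS10_1w against 3.54 to 7.09 CPM in the other 9 stimulated hearts, without overlap (log2 fold change -2.08, adjusted p = 0.0105). The macrophage marker list summed to 138 to 209 CPM in VNS10_1w, against 247 to 411 CPM in the other stimulated hearts and 178 to 357 CPM in the unstimulated ones. A low sum in VNS10_1w was not particular to macrophage markers. The extracellular matrix list summed to 1190 to 1470 CPM there, against 1520 to 3280 CPM in the other stimulated hearts. The fibroblast marker sums overlapped, at 1190 to 1600 CPM against 1120 to 2610 CPM. No macrophage marker was called in the pooled comparison, which is a different comparison from this one. The part of macrophage number in these differences was not tested. VNS20_1w differed from the other stimulated groups in 1 gene (0.00826%), Hnrnpa0. In VNS20_2w against the other stimulated groups edgeR called 0 genes, with 437 at an unadjusted p under 0.05, and DESeq2 called 4. In VNS20_4w against the other stimulated groups edgeR called 0, with 2867 at an unadjusted p under 0.05, and DESeq2 called 544.

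Genes of pressure overload were not called in the pooled comparison of all libraries, which does not show that they were unchanged. Without the 3 libraries of highest length slope, 1063 genes were called higher and 1061 lower across all genes. How many of the genes below were among them is not given here. Nppa, the atrial natriuretic peptide, averaged 1326 ± 1521 CPM in stimulated and 2319 ± 2075 CPM in unstimulated hearts (SD, n = 12 and 6), with a log2 fold change of -0.85 (edgeR adjusted p = 0.986). Both sides ranged widely, from 232 to 5499 CPM in stimulated and from 398 to 5398 CPM in unstimulated hearts. Acta1, the skeletal actin of the fetal programme, averaged 3364 ± 3465 CPM and 4943 ± 3874 CPM on the same sides, a value of -0.87. Postn, a matrix protein of activated fibroblasts, averaged 39.9 ± 26.1 CPM in stimulated and 111 ± 125 CPM in unstimulated hearts (log2 fold change -1.20, adjusted p = 0.744), with -0.10 against AB alone. Myh7, the slow myosin heavy chain, was at 0.04 and Atp2a2, the calcium pump of the stores, at -0.07.

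In the pooled comparison 0.438% of all tested genes were called, a share to set beside the counts that follow. The fetal and hypertrophy list had 0 of 21 tested genes called and a median of -0.56, with -1.08 against AB_Implant alone and 0.07 against AB alone. The extracellular matrix list had 0 of 48 called and a median of -0.49, with -0.79 against AB_Implant alone and -0.12 against AB alone. Of 28 immediate early genes Ccn1 and Jund were called lower (median -0.48), and of 20 heat shock genes Hspa1a was (median -0.26), beside 0.157% of all tested genes. Their calls were lost in 8, 14 and 14 of the 18 fits without 1 library, in the order Ccn1, Jund and Hspa1a. Autonomic receptors had 0 of 21 called and a median of 0.01, and Chrm2, the muscarinic receptor through which the vagus acts on the heart, averaged 3.95 CPM in stimulated and 2.96 CPM in unstimulated hearts. Its fitted value of -0.09 differed in sign from these means. Inflammation genes had 0 of 18 called (median 0.10), nuclear genes of the respiratory chain 0 of 29 (median 0.21), mitochondrial-encoded genes 0 of 13 (median 0.46) and fatty acid oxidation genes 0 of 31 (median 0.16).

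**Figure D5:**
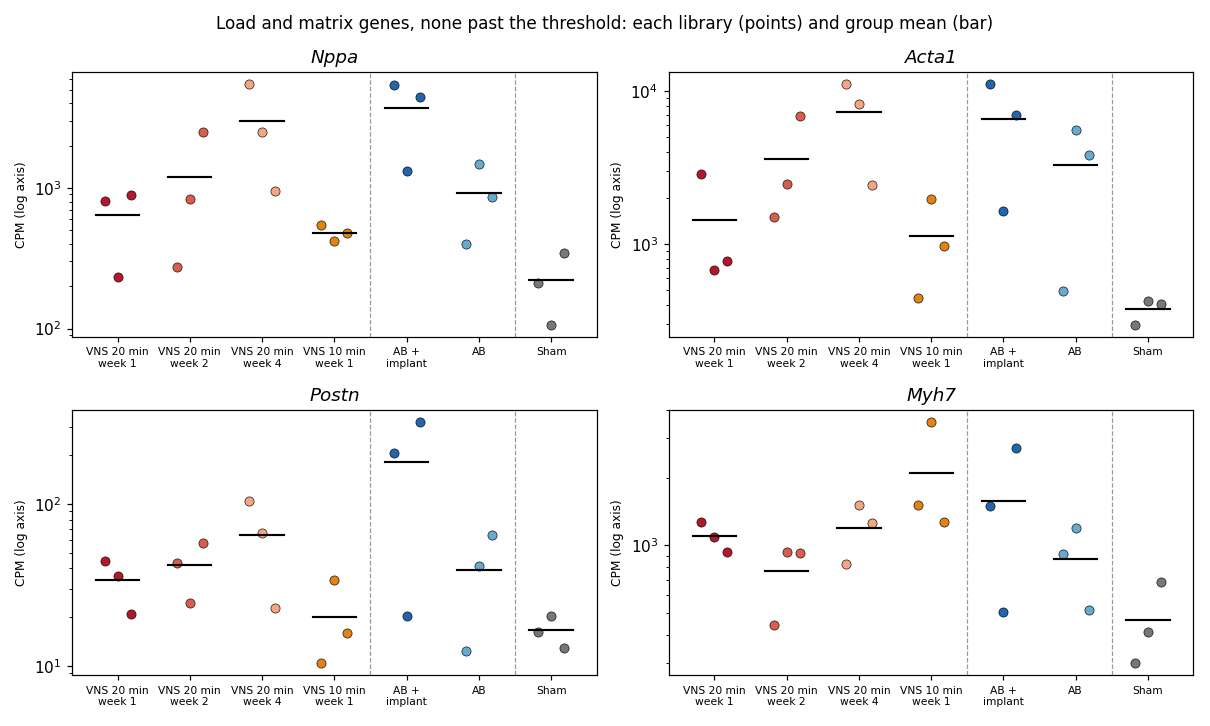
Level of Nppa, Acta1, Postn and Myh7 in each library (points, CPM) with the mean of each group (bar), for the 4 stimulated groups, the 2 unstimulated groups and sham from left to right. Stimulated and unstimulated points overlap for Nppa, from 232 to 5499 CPM and from 398 to 5398 CPM, and likewise in the other panels.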

How the data were processed

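The deposited table gives 21 left ventricle libraries and 22136 genes. Its name calls the values normalized, but all are whole numbers with unequal totals, so they were treated here as raw read counts; the authors' own statement of the unit is not given in the sources used here, and counting intervals and floors rest on this reading. Per the labels' protocols, total RNA with RNA integrity above the set minimum was poly(A)-selected and sequenced in pairs. The submitters' processing notes list read checks by FastQC 0.11.9, trimming software cutadapt 1.11, the aligner HISAT2 2.1.0 and the counter featureCounts 1.6.0, beside edgeR 3.32.1 under R 4.0.3, and the builds GRCm38 and mm10. Whether counting used strand is not given in the sources used here. Here, genes with at least 1 CPM in at least 3 libraries (12100) were fitted with edgeR 4.0.16 (quasi-likelihood, TMM scaling, R 4.3.3), 21 libraries in 7 groups, no covariates, and Benjamini-Hochberg adjustment at 0.05; the fit was tested on simulated data. CPM are scaled by TMM. Fold changes average groups with equal weight. Alternatives used DESeq2 1.42.0 and limma 3.58.1. Genes were named by a set rule: the 12 largest rises and falls without overlap between sides, the largest changes of each single group, up to 4 called members of each list, and a set of load and vagal genes. Other genes were named after their values were seen. The members and the gene lists were chosen with earlier results of these data known. No 2 libraries were duplicates. Promoters are RefSeq's.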

Additional observations from a re-analysis of the deposited data

Results flagged for a closer look

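The following differed between stimulated groups by the test of the difference itself (edgeR's quasi-likelihood test, adjusted p under 0.05, log2 fold change of 1 group against the other 3 stimulated groups). In VNS20_1w, Hnrnpa0 differed by -2.41 (adjusted p = 0.0437). In VNS10_1w, Hnrnpa0 differed by 2.05 (adjusted p = 0.00381), Cebpb by 4.13, Gm9887 by 4.10, 1810049J17Rik by 5.57 and Nudt3 by 3.33. Tmem238 differed by 3.13, Hspa1a by 2.99, Hspa1b by 2.98, Inafm2 by 2.96 and Ccdc71l by 2.51 in VNS10_1w. Pabpn1 differed by 2.21, Eid2b by 1.97 and Mrfap1 by 1.12 there. C3ar1 differed by -2.08, Pirb by -1.99, S100a4 by -1.82 and Nrp1 by -0.79 in VNS10_1w. The VNS10_1w libraries had 1.95, 2.21 and 2.27 CPM of Pirb, against 4.72 to 12.4 CPM in the other 9 stimulated libraries. Nrp1 had 28.5, 35.7 and 31.3 CPM in VNS10_1w, and in the unstimulated groups 30.3, 30.3 and 27.9 CPM in AB_Implant and 57.6, 55.2 and 56.7 CPM in AB.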

How the results depend on the processing

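The pooled count of 53 called genes became 80 without the filter on low counts, 4 with a mean of at least 5 CPM, 83 with DESeq2, 443 with limma-voom weights, 128 with the length slope as covariate, 202 with the GC slope as covariate (chosen after seeing the data), 20 against AB alone, 35 (34 higher, 1 lower) with 1 stimulated and 1 unstimulated group in the model and 34 (32 higher, 2 lower) without VNS20_1w. All 53 kept their call under DESeq2, no filter and both slopes. With the replicate number as a block 36 were called (29 higher, 7 lower); same-numbered libraries did not deviate together (median correlation -0.07, 45 pairs), and 0 of 18 libraries were closest to their own number. Leaving out single libraries gave 36 (29 higher, 7 lower, without AB replicate 1) to 58, and leaving out the 3 libraries of highest length slope gave 2124. VNS20_1w against unstimulated (60) became 14 at 5 CPM, 117 with DESeq2, 467 with voom, 209 with length slope, 206 with GC slope and 35 against AB alone, and 27 to 72 without single libraries. VNS20_2w against unstimulated (40) became 1, 70, 293, 90, 74 and 13 in that order, 21 against AB_Implant alone, and 27 to 113. VNS20_4w against unstimulated (36) became 1 at 5 CPM, 85 with DESeq2, 3009 with voom and 18 against AB alone, and 27 to 2206. VNS10_1w against unstimulated (25) became 1 at 5 CPM, 57 with DESeq2, 696 with voom, 66 with length slope and 6 against AB alone, and 15 to 34. The values 113 and 2206 are those without the 3 libraries. VNS20_1w against the other stimulated groups (1) became 2 at 5 CPM, 2 with DESeq2 size factors, 29 with DESeq2, 2153 with voom, 38 with length slope, 8 with GC slope and 0 with the replicate block, and 0 to 12. VNS20_2w against the other stimulated groups (0) became 4 with DESeq2, 525 with voom and 2 with length slope, and 0 to 6. VNS20_4w against the other stimulated groups (0) became 544 with DESeq2 and 1025 with voom, and stayed at 0 without single libraries. VNS10_1w against the other stimulated groups (17) became 4 at 5 CPM, 111 with DESeq2, 4253 with voom, 191 with length slope and 95 with GC slope, and 3 (without its replicate 2) to 83 (without VNS20_2w replicate 1). The count called in all 4 groups (20) became 1 at 5 CPM, 4 against AB alone and 10 against AB_Implant alone, and 15 to 22. Log2 fold changes that reversed against AB alone were Hspa1a 0.15, Rcan1 0.25, Nppa 0.16, Myh6 -0.012, Timp1 0.04 and Chrm2 0.12. Myh7 was -0.38 against AB_Implant alone and -0.22 without VNS10_1w; Timp1 was 0.25 without VNS10_1w and 0.24 with 1 group a side; Chrm2 was 0.43 with 1 group a side and 0.78 without VNS20_4w, where Atp2a2 was 0.092. Without single libraries Myh7 ran from -0.17 to 0.37, Atp2a2 from -0.17 to 0.015 and Chrm2 from -0.61 to 0.14. The cause of these changes was not tested.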
